A study of Mus musculus with 5 samples.

Results

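The genes described here are the Wnt ligands, their receptors and regulators, and genes of planar cell polarity, measured in whole mouse kidney with and without a Pkd1 knockout. All rows whose symbol begins with Wnt or Fzd and a digit were taken, together with 27 named genes, which gave 56 of the 23997 rows of the expression table. RNA came from kidneys of mice aged 8 weeks, in 3 libraries labelled as uninduced control (control 0, 1 and 2) and 2 labelled as Pkd1 knockout (knockout 0 and 1). The sample titles call the mutants SKO, the design text calls them PkdTKO, and neither name is explained. The labels state no strain, sex, Cre driver or inducing agent, so the cells in which the gene was deleted and the agents that either group received are not known from them. The study addressed metalloproteinases in the widening of cystic tubules. Pkd1 encodes polycystin-1, a large membrane protein whose loss causes polycystic kidney disease.

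Wnts are secreted lipid-modified proteins that bind Frizzled receptors. With the coreceptors Lrp5 and Lrp6, binding stops a cytoplasmic complex of Axin, Apc and kinases from degrading beta-catenin, which then acts with TCF and LEF factors in the nucleus. In a separate branch, Frizzleds and proteins such as Vangl2 and Celsr1 orient cells within the plane of an epithelium. In mice, Wnt9b and Wnt4 drive the formation of kidney tubules, and planar polarity has been tied to the diameter of growing tubules.

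Most of these transcripts did not separate the genotypes. Wnt4, a ligand needed to form nephrons, fell to 49.4% and 32.2% of the control mean in the knockout libraries, and Dkk3, a secreted protein related to the Dickkopf antagonists, rose to 196% and 163%. They were the only members called, 1 higher and 1 lower, among the 34 that could be tested. That is 5.88% of the tested members, beside 6.34% of the 12640 rows tested over the whole table (2.73% higher and 3.62% lower). Testing was limited to rows with a mean of at least 1 FPKM (mapped fragments relative to transcript length and to all mapped fragments of the library) over the 5 libraries. Values were compared as log2(FPKM + 1) with limma, and a gene was called at a Benjamini-Hochberg adjusted p under 0.05 over all tested rows. Fold changes below are on that scale, which understates changes of low genes. No label ties a library to an animal of its own, and p-values therefore measure the spread among these 5 libraries alone, technical or not.

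Among all tested rows 345 rose and 457 fell, a split that turned to 454 and 266 when each library was rescaled to a common sum. The median log2 fold change of the 34 tested members was 0.09, against -0.02 over all tested rows. Of them, 19 stood higher and 15 lower on average in the knockouts. The knockout values lay above all controls for 11 tested members and below all controls for 3. Together these make 41.2% of the tested members, against 48.2% of all tested rows (21.9% above and 26.3% below). At an unadjusted limma p under 0.05 there were 7 members higher and 2 lower, and 29.1% of all tested rows passed that limit in either direction. The other 22 members were under the filter, and their values are given as levels.

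**Figure D1:**
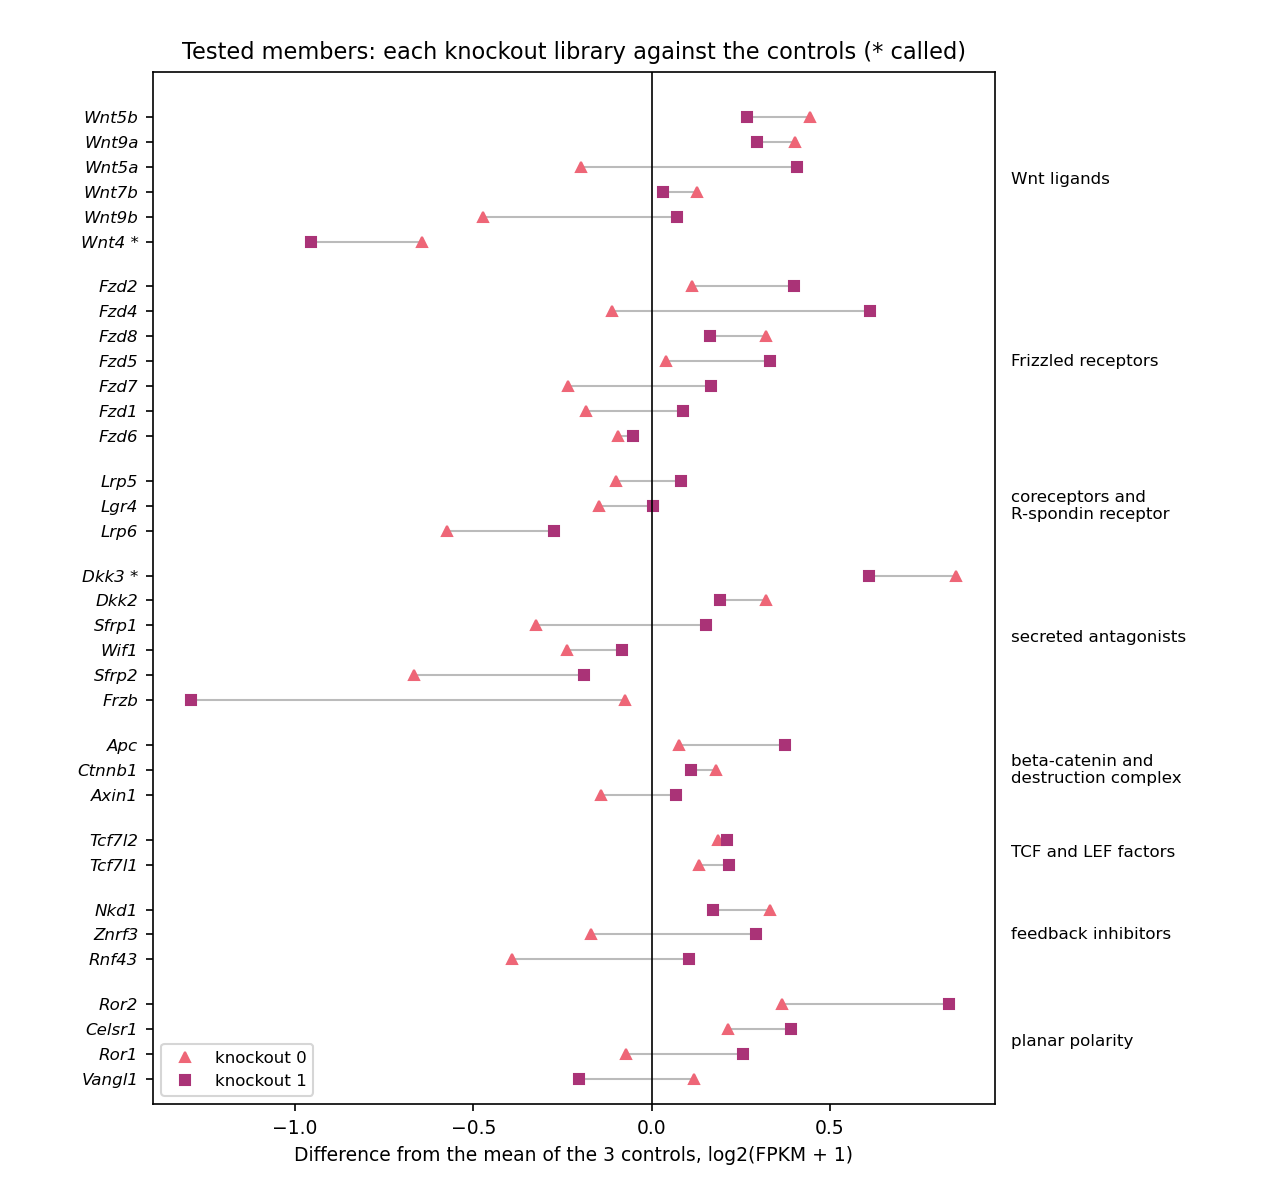
Difference of each knockout library from the mean of the 3 controls for each of the 34 tested members, grouped by role, on the log2(FPKM + 1) scale. A triangle marks knockout 0, a square marks knockout 1, and the grey line joining them is not a confidence interval. An asterisk marks members with a limma adjusted p under 0.05. Both points of Dkk3 lie above 0 and both of Wnt4 below it.

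The libraries differed in more than genotype. Their depth was estimated from the smallest steps between FPKM values. By that estimate 1 FPKM was worth about 155.8, 170.8 and 105.4 counted reads or fragments per kilobase in the controls and 88.3 and 209.9 in knockouts 0 and 1. Between 49.4% and 55.3% of low values came out whole within 0.1 of a count, so these depths are approximate. Pkd1 itself stood at 3.22, 3.51 and 3.49 FPKM in the controls and at 2.72 and 3.60 FPKM in the knockouts (adjusted p = 0.646). Those values do not separate the labels. A deletion of part of the gene need not lower its FPKM. The Y-linked Ddx3y lay between 17.8 and 18.6 FPKM in controls and stood at 7.30 and 0.00194 FPKM in knockouts 0 and 1. Xist was at 0.0222 to 0.0275 FPKM in controls and at 30.8 and 80.3 FPKM in knockouts 0 and 1. Knockout 0 thus held both Xist and Y-linked RNA, and the reason was not tested. Sex chromosome transcripts differed along with genotype, and the effects of each cannot be told apart. Summed macrophage markers were at 275 to 314 FPKM in controls, 1368 in knockout 0 and 367 in knockout 1. Of these, Cd74 alone was at 187 to 215, 993 and 238 FPKM. In this list 8 of 8 markers lay above every control, beside 21.9% of all tested rows, and 0 were called by limma. Summed tubule injury markers were at 145 to 167 FPKM in controls, 664 in knockout 0 and 117 in knockout 1. Of this, Clu alone was at 123 to 150, 325 and 86.3 FPKM. In that list 3 of 6 markers lay above every control in both knockouts, beside 21.9% of all tested rows, and 3 overlapped. Cp was the 1 marker called, at a limma adjusted p of 0.0372. Kidney markers of podocytes and collecting ducts were present in all libraries. So were proximal tubule markers, a list of 8 that summed to 974 to 994 FPKM in controls and 930 and 1018 FPKM in knockouts 0 and 1. Slc34a1 and Lrp2 of that list were listed at 0 in all libraries, and the reason was not tested. In RNA from a whole organ, fewer cells of a type and less RNA per cell cannot be told apart.

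Among the ligands, the summed level of the 19 Wnts stayed between 19.4 and 22.0 FPKM, at 21.5, 19.4 and 20.7 FPKM in controls 0, 1 and 2 and 20.3 and 22.0 FPKM in knockouts 0 and 1. Wnt7b, which in mice is made by the collecting duct and patterns the medulla, led this sum in 4 of the 5 libraries with 26.2% to 30.2%. In knockout 1 it supplied 25.9%, and Wnt5a, a ligand of the branch that does not use beta-catenin, supplied 30.3%. The share of Wnt4 went from 13.9%, 10.9% and 12.2% in the controls to 6.2% and 3.73% in the knockouts. Of the 6 Wnts tested, 1 fell, none rose and 5 did not pass.

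**Figure D2:**
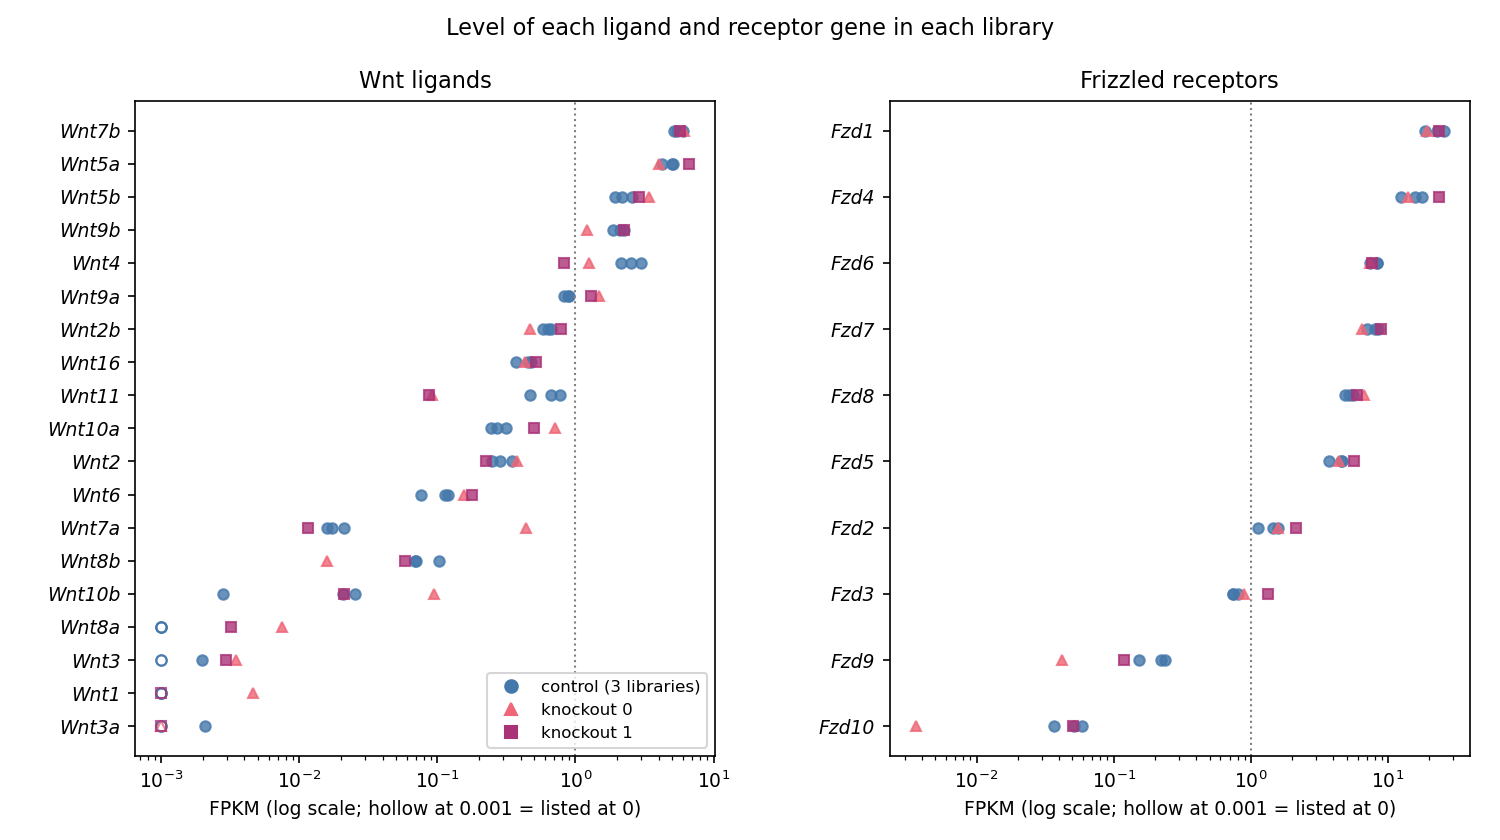
FPKM of every Wnt ligand and Frizzled receptor in each library, on a log axis, with values listed at 0 drawn hollow at the left edge. The dotted line marks 1 FPKM, the filter for testing (applied to the mean), and the knockout points of Wnt4 and Wnt11 lie left of all their control points.

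Wnt4 (ENSMUSG00000036856.4, chr4:137277489-137299726, plus strand, GRCm38) was at 2.999, 2.12 and 2.51 FPKM in controls 0, 1 and 2 and at 1.26 and 0.819 FPKM in knockouts 0 and 1. Both knockouts lay below every control. The control mean was 2.54 ± 0.441 FPKM (SD, n = 3), and the log2 fold change was -0.80 (SE 0.158, 95% confidence interval -1.20 to -0.40) with an adjusted p of 0.0492 by limma. An exact two-sided permutation test of the 5 values gave p = 0.1, the smallest that 3 against 2 libraries allow. The call sat at the threshold: the adjusted p was 0.175, 0.0943 and 0.211 without control 0, 1 or 2 and 0.0540 without knockout 1, while without knockout 0 the gene was called at 0.0414 with a log2 fold change of -0.95. Rescaling to a common sum or by a median of ratios also ended the call, at 0.0521 and 0.0533, as did testing without a filter, at 0.0807.

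Wnt11, a ligand that in mice is expressed at ureteric bud tips and that can signal through planar polarity, was low throughout. Its levels were 0.778, 0.470 and 0.669 FPKM in controls 0, 1 and 2 and 0.0906 and 0.0871 FPKM in knockouts 0 and 1. The knockouts were at 14.2% and 13.6% of the control mean of 0.639 ± 0.156 FPKM (SD, n = 3) and lay below every control. At the estimated depths this corresponds to about 121, 80.3 and 70.5 counts per kilobase in the controls and 8.0 and 18.3 in the knockouts. With a mean under 1 FPKM the gene was outside the tested rows. When all rows above 0 were tested, its limma adjusted p was 0.0516 with a log2 fold change of -0.59. With a pseudocount of 0.1 as well, a choice made after seeing the data, these were 0.0298 and -1.95. The locus is chr7:98835112-98855195 on the plus strand, and a processed pseudogene, Gm8398, overlaps it on the other strand. It was not stated whether the counting used strand, so reads from both cannot be told apart.

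The start regions of Wnt4 and Wnt11, the 2 ligands with a control mean above 0.5 FPKM that lay below every control in both knockouts, are shown with that of Dkk1, a secreted antagonist and known beta-catenin target whose low levels were above every control in both. Sequences are from RefSeq on GRCm38.p6 and run from 250 bases before to 50 bases after an annotated start, 5′ to 3′ on the gene's strand. Capitals mark matches to the TCF and LEF core word CTTTGA or its reverse complement TCAAAG, searched on both strands.
Wnt4 (chr4:137277385-137277684, plus strand): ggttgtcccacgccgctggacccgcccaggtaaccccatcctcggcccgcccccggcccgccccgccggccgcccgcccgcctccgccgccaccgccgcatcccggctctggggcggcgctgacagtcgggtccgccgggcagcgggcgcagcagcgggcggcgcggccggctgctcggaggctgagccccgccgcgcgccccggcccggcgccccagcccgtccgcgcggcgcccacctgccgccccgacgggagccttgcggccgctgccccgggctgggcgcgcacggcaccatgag
Wnt11, first start (chr7:98834862-98835161, plus strand): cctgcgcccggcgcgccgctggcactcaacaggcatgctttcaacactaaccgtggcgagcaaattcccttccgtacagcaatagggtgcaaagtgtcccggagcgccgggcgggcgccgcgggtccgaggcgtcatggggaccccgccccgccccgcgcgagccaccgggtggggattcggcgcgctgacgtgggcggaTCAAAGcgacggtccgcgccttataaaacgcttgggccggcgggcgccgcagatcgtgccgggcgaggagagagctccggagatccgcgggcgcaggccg
Wnt11, second start (chr7:98838595-98838894, plus strand): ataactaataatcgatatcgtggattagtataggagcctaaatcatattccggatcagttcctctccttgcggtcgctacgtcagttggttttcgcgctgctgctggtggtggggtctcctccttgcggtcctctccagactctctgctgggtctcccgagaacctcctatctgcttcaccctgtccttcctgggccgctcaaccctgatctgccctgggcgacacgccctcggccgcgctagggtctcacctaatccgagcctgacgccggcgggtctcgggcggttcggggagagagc
Dkk1 (chr19:30549447-30549746, minus strand): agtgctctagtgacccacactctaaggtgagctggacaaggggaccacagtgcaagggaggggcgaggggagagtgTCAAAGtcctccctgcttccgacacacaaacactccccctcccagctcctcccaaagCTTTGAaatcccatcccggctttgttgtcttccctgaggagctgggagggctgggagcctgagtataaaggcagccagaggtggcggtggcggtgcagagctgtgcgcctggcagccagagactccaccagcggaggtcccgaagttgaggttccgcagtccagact
The first Wnt11 window holds TCAAAG with its first base 50 bases before the start, and the Dkk1 window holds TCAAAG 174 and CTTTGA 117 bases before it. No match lies in the Wnt4 window or in that of the second Wnt11 start. The RefSeq start of the Wnt4 window lies inside the Wnt4 locus given above, so fewer than 250 of its bases precede that locus. Over the 39 members found in the promoter table, 7 (17.9%) had a match in at least 1 window, beside 18.2% of all genes in it, and 7 of 49 member windows (14.3%) held one beside 16.0% of all windows. A match of 6 letters is a description and does not show binding.

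Markers of other cells are given beside these ligands, and 26.3% of all tested rows lay below every control in both knockouts. Urothelial markers, which mark the lining of the renal pelvis, summed to 15.6 to 23.2 FPKM in controls and to 4.56 and 10.4 FPKM in knockouts 0 and 1, with 4 of 5 below every control and 0 called by limma. Intercalated cell markers summed to 122 to 154 FPKM, 68.2 and 103 FPKM, with 4 of 5 below every control and 0 called. Collecting duct markers summed to 710 to 821, 680 and 809 FPKM, with 2 of 9 below and 7 of 9 overlapping, so this sum was within the control range in knockout 1. In the loop of Henle and distal tubule list 2 of 6 were called. Calb1, which marks the distal tubule, fell from 263.7, 288.1 and 244.9 FPKM to 100.5 and 148.8 FPKM (adjusted p = 0.0362). Umod, which marks the thick ascending limb, was listed at 0 in every control and stood at 784 and 1144 FPKM in the knockouts. Whether that 0 reflects absent RNA was not tested, and Slc34a1 and Lrp2 were listed at 0 in all libraries. Over this list of 6, 1 marker lay above every control, 2 lay below and 3 overlapped. Slc12a1, which overlapped, was at 292, 196 and 247 FPKM in controls 0, 1 and 2 and 114 and 294 FPKM in knockouts 0 and 1. The part of these cells in the values of Wnt4 and Wnt11 was not tested.

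Other ligands had knockout values above every control without passing the test. Wnt5b, a ligand close to Wnt5a, was at 1.95, 2.59 and 2.17 FPKM in controls 0, 1 and 2 and at 3.39 and 2.88 FPKM in knockouts 0 and 1, a log2 fold change of 0.36 (SE 0.122, adjusted p = 0.133). Its locus overlaps Fbxl14 on the other strand. Wnt9a had 0.823, 0.881 and 0.904 FPKM in the controls and 1.47 and 1.30 FPKM in the knockouts, a log2 fold change of 0.35 (SE 0.109, adjusted p = 0.112). Wnt10a, under the filter, had 0.271, 0.245 and 0.313 FPKM in the controls and 0.708 and 0.504 FPKM in the knockouts, 256% and 182% of the control mean. In these 3 ligands the gap between groups was wider than the control range only for Wnt9a and Wnt10a.

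The most abundant ligands overlapped between groups. Wnt7b was at 6.05, 5.17 and 5.42 FPKM in controls 0, 1 and 2 and at 6.14 and 5.68 FPKM in knockouts 0 and 1 (log2 fold change 0.08, adjusted p = 0.597), and an antisense gene, AU022754, overlaps it. Wnt5a was at 4.99, 4.26 and 5.07 FPKM in the controls, 4.03 FPKM in knockout 0 and 6.65 FPKM in knockout 1, so the knockouts stood on opposite sides of the controls (log2 fold change 0.11, adjusted p = 0.754). Wnt9b, which starts tubule formation in the mouse embryo, was at 2.25, 2.12 and 1.88 FPKM in the controls, 1.22 FPKM in knockout 0 and 2.24 FPKM in knockout 1. Its knockouts differed from each other by more than the controls did, with an adjusted p of 0.506.

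Below the filter, Wnt2b, made by kidney stroma in mice, was at 0.581, 0.637 and 0.664 FPKM in controls and 0.468 and 0.791 FPKM in knockouts 0 and 1, and Wnt16 at 0.370, 0.473 and 0.450 FPKM and 0.433 and 0.513 FPKM. Both overlapped. Wnt7a, a close relative of Wnt7b, was at 0.0212, 0.0159 and 0.0172 FPKM in controls, 0.441 FPKM in knockout 0 and 0.0115 FPKM in knockout 1, so it was above a trace only in the library with the highest macrophage and injury sums, whose part in this was not tested. Wnt6 was above every control in both knockouts, at 0.155 and 0.178 FPKM against 0.0761, 0.120 and 0.114 FPKM. Wnt8b was below, at 0.0159 and 0.0581 FPKM against 0.0687, 0.0696 and 0.102 FPKM. Wnt1, Wnt3, Wnt3a and Wnt8a were listed at 0 in at least 1 library. Of the 22 members under the filter, 16 had a mean of at least 0.05 FPKM. In that range 6 members lay above all controls in both knockouts and 3 below, beside 32.2% and 13.4% of all rows of like level (45.6% together).

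No Frizzled passed the test. The 10 receptor genes summed to 63.6, 65.7 and 66.9 FPKM in controls 0, 1 and 2, 61.0 FPKM in knockout 0 and 79.1 FPKM in knockout 1. Most of it came from Fzd1 and from Fzd4, which also serves the ligand Norrin on endothelium. The 7 tested Frizzleds had log2 fold changes between -0.07 and 0.26.

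Fzd1 was at 18.6, 25.4 and 22.9 FPKM in controls and 19.4 and 23.6 FPKM in knockouts 0 and 1, within the control range (log2 fold change -0.05, adjusted p = 0.869). Fzd4 was at 17.7, 12.5 and 15.7 FPKM in controls, 14.0 FPKM in knockout 0 and 23.7 FPKM in knockout 1 (log2 fold change 0.25, adjusted p = 0.547). It supplied 29.9% of the Frizzled sum in knockout 1 and between 19.1% and 27.9% in the controls. Fzd8 had 5.24, 5.52 and 4.86 FPKM in the controls and 6.74 and 5.94 FPKM in the knockouts, which lay above every control (log2 fold change 0.24, SE 0.0885, adjusted p = 0.151). Fzd5 was at 4.59, 3.74 and 4.56 FPKM in controls and 4.43 and 5.65 FPKM in the knockouts (adjusted p = 0.390). Fzd2 was at 1.13, 1.58 and 1.44 FPKM in controls and 1.57 and 2.13 FPKM in the knockouts (adjusted p = 0.299). Both overlapped between groups, and only in knockout 1 were they above all controls. The remaining tested Frizzleds, Fzd6 and Fzd7, had adjusted p-values of 0.600 and 0.906. Under the filter, Fzd3, a receptor of the planar polarity branch, was above every control at 0.897 and 1.32 FPKM against 0.739, 0.810 and 0.736 FPKM. Fzd9 was below, at 0.0419 and 0.118 FPKM against 0.152, 0.221 and 0.236 FPKM, and Fzd10 did not exceed 0.0584 FPKM in any library.

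Lrp6, the coreceptor needed for signalling through beta-catenin, was lower in both knockouts than in every control without being called. It was at 26.5, 24.5 and 27.5 FPKM in controls 0, 1 and 2 and at 17.2 and 21.5 FPKM in knockouts 0 and 1. The control mean was 26.2 ± 1.54 FPKM (SD, n = 3), and the log2 fold change was -0.42 (SE 0.112, 95% confidence interval -0.71 to -0.14, adjusted p = 0.0849). With knockout 0 as the only mutant library it was called, at an adjusted p of 0.0226 and a log2 fold change of -0.57. Its partner Lrp5 did not separate the groups, with 8.75, 8.07 and 8.76 FPKM in controls and 7.89 and 9.07 FPKM in knockouts (adjusted p = 0.960). Lgr4, a receptor for R-spondins that protects Frizzleds from removal, was the most abundant receptor gene of the set at 50.8, 71.9 and 62.1 FPKM in controls and 54.9 and 61.1 FPKM in knockouts, within the control range.

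Of the 6 tested secreted antagonists 1 rose, none fell and 5 did not pass. Dkk3 (ENSMUSG00000030772.6, chr7:112116017-112159057, minus strand, GRCm38) was at 5.22, 5.37 and 4.91 FPKM in controls 0, 1 and 2 and at 10.1 and 8.41 FPKM in knockouts 0 and 1. The controls lay close together, at 5.17 ± 0.237 FPKM (SD, n = 3), and both knockouts were well above them. The log2 fold change was 0.73 (SE 0.0968, 95% confidence interval 0.49 to 0.97) with an adjusted p of 0.0255 by limma. Dkk3 was the single member called with either knockout library alone, at adjusted p-values of 0.00622 for knockout 0 and 0.0300 for knockout 1. With 1 control fewer it was not called, at 0.133, 0.0792 and 0.170 without control 0, 1 or 2, while its log2 fold change stayed between 0.61 and 0.85 with any 1 library left out. With no filter it was at 0.05005. Fibroblast and pericyte markers summed to 91.2 to 132 FPKM in controls, 239 FPKM in knockout 0 and 130 FPKM in knockout 1. Of them, 2 of 9 were above every control in both, beside 21.9% of all tested rows, and 0 were called. The part of these markers' cells in the Dkk3 value was not tested.

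Dkk2, which binds Lrp5 and Lrp6, had 10.1, 9.82 and 9.44 FPKM in controls and 12.5 and 11.3 FPKM in knockouts 0 and 1, above every control (log2 fold change 0.26, SE 0.0739, adjusted p = 0.0983). Dkk1 was far lower, at 0.0588, 0.0590 and 0.0584 FPKM in controls and 0.182 and 0.103 FPKM in the knockouts, 310% and 175% of the control mean, and was outside the tested rows. Of these 3 Dickkopf family members 1 passed the test. Both knockouts lay above every control for all 3, as they did for 21.9% of all tested rows and 32.2% of rows at the level of Dkk1. Dkk4, of the wider pathway list, was near 0 throughout, at 0.00502, 0.00921 and 0.00754 FPKM in controls and listed at 0 in both knockouts.

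None of the antagonists that bind Wnts directly was called. Sfrp1 was at 33.5, 33.2 and 33.1 FPKM in controls, 26.4 FPKM in knockout 0 and 37.0 FPKM in knockout 1, so a tight control group lay between the knockouts (adjusted p = 0.736). Frzb was at 17.5, 9.65 and 13.4 FPKM in controls and 12.4 and 4.80 FPKM in the knockouts, with wide control spread (log2 fold change -0.68, SE 0.407, adjusted p = 0.319). Sfrp2 was at 3.14, 4.46 and 3.99 FPKM in controls and 2.04 and 3.24 FPKM in the knockouts (log2 fold change -0.43, adjusted p = 0.203). Groups overlapped for Sfrp1, Sfrp2 and Frzb. Wif1 was below every control at 0.819 and 1.03 FPKM against 1.13, 1.21 and 1.10 FPKM (log2 fold change -0.16, adjusted p = 0.398).

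**Figure D3:**
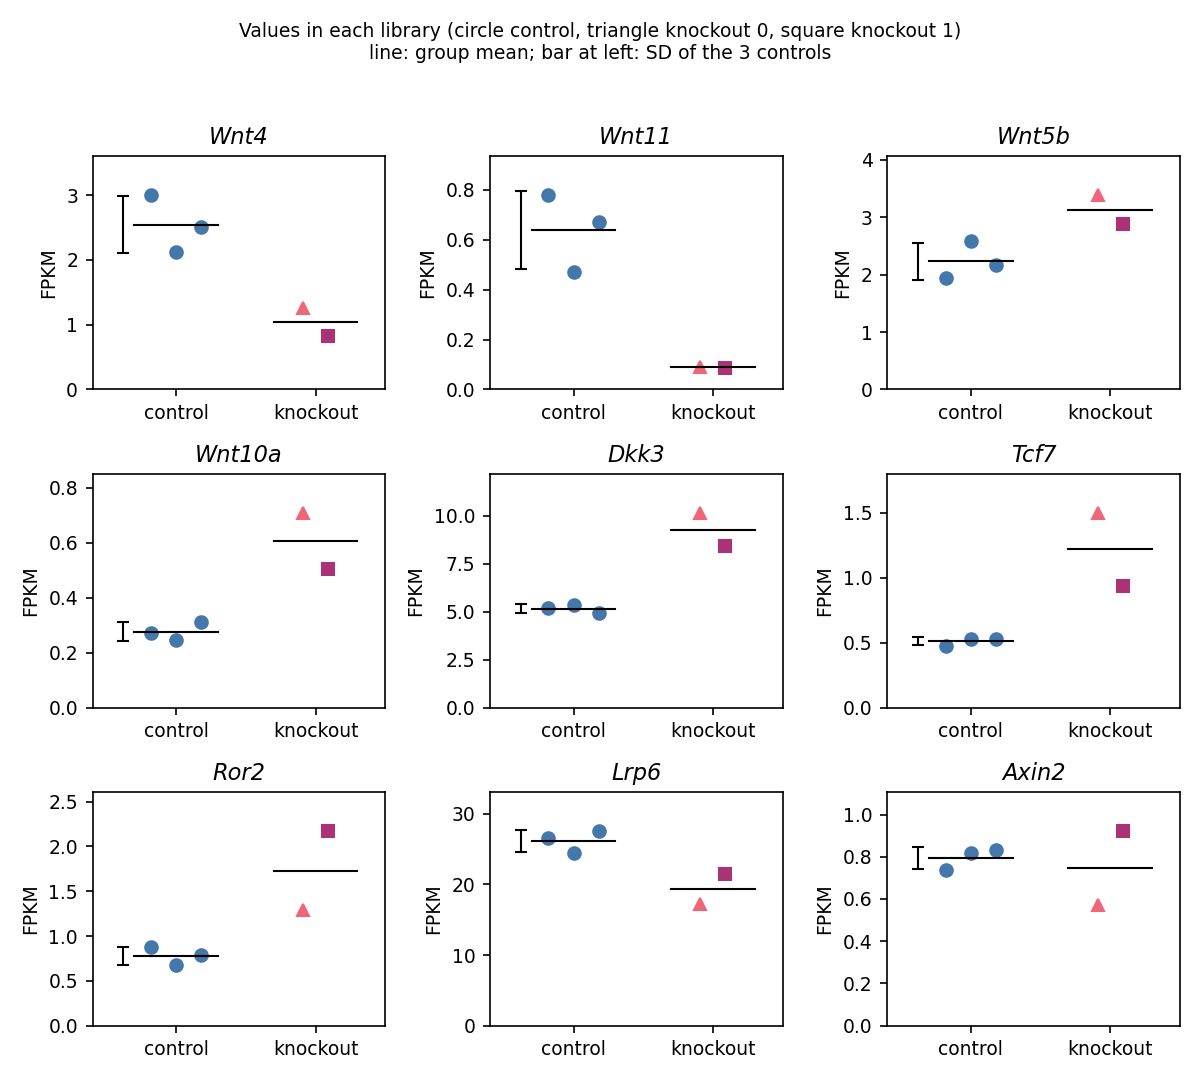
FPKM in each library for genes described in the text, with circles for controls, a triangle for knockout 0, a square for knockout 1, a line at each group's mean and a bar for the SD of the 3 controls. Both knockout points of Wnt5b, Wnt10a, Dkk3, Tcf7 and Ror2 lie above all control points, those of Wnt4, Wnt11 and Lrp6 lie below, and those of Axin2 lie on either side.

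Inside the cell, beta-catenin and its destruction complex were not called in either direction. Ctnnb1, which encodes beta-catenin, was at 163.4, 157.5 and 156.5 FPKM in controls 0, 1 and 2 and 180.2 and 171.8 FPKM in knockouts 0 and 1. The knockouts lay above every control, with a log2 fold change of 0.14 (SE 0.0729, adjusted p = 0.250). Reads from Ulk4, which overlaps the locus on the other strand, cannot be told apart from it unless the counting used strand. Apc, the scaffold of the complex, was at 7.11, 6.77 and 7.14 FPKM in controls and 7.43 and 9.36 FPKM in the knockouts (adjusted p = 0.222). Axin1 was at 13.5, 13.2 and 14.1 FPKM in controls and 12.3 and 14.3 FPKM in the knockouts, on either side of the controls. Axin2, a widely used readout of beta-catenin activity, was under the filter at 0.736, 0.817 and 0.831 FPKM in controls and 0.569 and 0.921 FPKM in the knockouts, so it lay below all controls in one and above all in the other.

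Of the nuclear factors, Tcf7 had the clearest separation at a low level. It was at 0.475, 0.525 and 0.530 FPKM in controls and 1.498 and 0.939 FPKM in knockouts 0 and 1, or 294% and 184% of the control mean, and its mean was under the filter. Tcf7 encodes TCF-1, which T cells also express strongly, and 6 of 7 lymphocyte markers were above every control. The share was 32.2% over rows with a mean of 0.05 to under 1 FPKM and 21.9% over all tested rows. Only Cd3e and Nkg7 of these markers were tested, and 0 were called by limma. The 7 markers summed to 2.82 to 3.74 FPKM in controls, 9.06 FPKM in knockout 0 and 4.63 FPKM in knockout 1. The part of this sum in the Tcf7 value was not tested. Lef1 overlapped between groups, at 0.629, 0.435 and 0.708 FPKM and 0.401 and 0.459 FPKM. Tcf7l1 was at 4.03, 3.63 and 4.51 FPKM in controls and 4.53 and 4.86 FPKM in the knockouts (adjusted p = 0.300), and Tcf7l2 at 6.06, 5.58 and 7.34 FPKM and 7.28 and 7.44 FPKM (adjusted p = 0.308). Neither was called.

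The feedback inhibitors were not called either. Nkd1, a target that restrains Dishevelled, was nearly constant in controls at 1.16, 1.17 and 1.16 FPKM and stood at 1.72 and 1.44 FPKM in knockouts 0 and 1 (log2 fold change 0.25, SE 0.106, adjusted p = 0.191). Nkd2 was at 0.222, 0.303 and 0.263 FPKM in controls, 1.30 FPKM in knockout 0 and 0.284 FPKM in knockout 1, so it stood out in 1 library alone. Rnf43 and Znrf3 encode ubiquitin ligases that remove Frizzleds from the membrane. Rnf43 was at 2.03, 1.87 and 2.05 FPKM in controls and 1.27 and 2.21 FPKM in the knockouts. Znrf3 was at 3.15, 3.13 and 3.27 FPKM in controls and 2.72 and 4.12 FPKM in the knockouts. For both, knockout 0 lay below and knockout 1 above every control.

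Planar polarity genes had a median log2 fold change of 0.20 over the 4 tested, and none was called. Ror2, a receptor tyrosine kinase that binds Wnt5a, was at 0.877, 0.675 and 0.792 FPKM in controls 0, 1 and 2 and at 1.29 and 2.17 FPKM in knockouts 0 and 1. It was above every control in both, with a log2 fold change of 0.60 (SE 0.171, 95% confidence interval 0.17 to 1.03, adjusted p = 0.0970), and it was called with knockout 1 as the only mutant library at an adjusted p of 0.0250. Celsr1, an atypical cadherin of the core polarity complex, was at 4.24, 3.78 and 4.18 FPKM in controls and 4.87 and 5.63 FPKM in the knockouts, above every control (log2 fold change 0.30, SE 0.0921, adjusted p = 0.108). Vangl2, whose loss disturbs planar polarity in mice, was at 0.717, 0.789 and 0.924 FPKM in controls and 0.992 and 1.30 FPKM in the knockouts and was under the filter. Both knockouts were above every control for 3 of the 5 planar polarity members, beside 21.9% of all tested rows and 32.2% of rows at the level of Vangl2. The other two overlapped: Vangl1 at 8.89, 7.02 and 7.92 FPKM against 8.67 and 6.74 FPKM (adjusted p = 0.865), and Ror1 at 1.997, 1.40 and 1.90 FPKM against 1.62 and 2.29 FPKM (adjusted p = 0.741).

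The knockout libraries differed from each other. With knockout 0 as the only mutant library, 8 members were called (Dkk2, Dkk3, Lrp6, Nkd1, Rnf43, Sfrp1, Wnt9a and Wnt9b), against 20.6% of all tested rows. With knockout 1 alone there were 3 (Dkk3, Ror2 and Wnt4), against 8.34% of rows. These fits share the controls, and a lone mutant library is assumed to vary like the controls. The median difference of the tested members was -0.07 in knockout 0 and 0.16 in knockout 1.

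**Figure D4:**
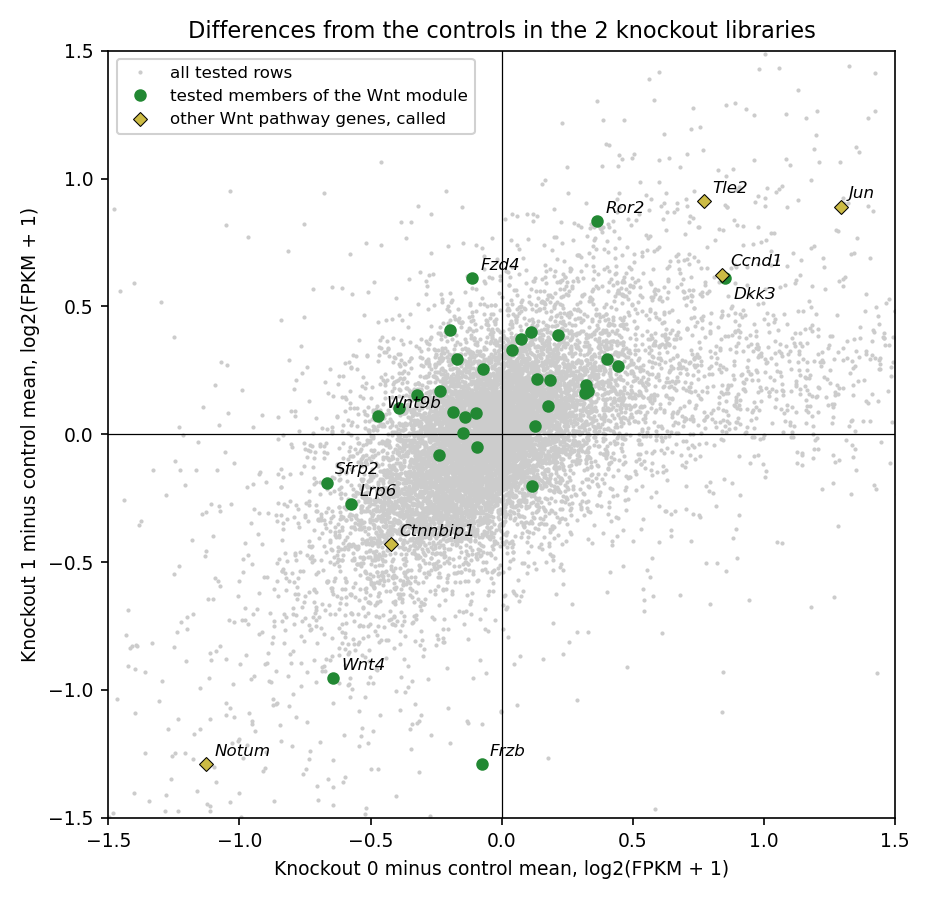
Difference of each knockout library from the control mean on the log2(FPKM + 1) scale, with knockout 0 on the horizontal and knockout 1 on the vertical axis, for 34 tested members (green), called genes of the wider pathway (diamonds) and all tested rows (grey; 389 lie outside the plotted range). Dkk3 stands high and Wnt4 low on both axes, whereas Fzd4 and Frzb depart from 0 mainly in knockout 1.

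A wider list of 78 pathway genes was set beside the members: 60 were tested, 3 rose, 2 fell and 55 did not pass, a share called of 8.33% beside 6.34% of all rows. Their median log2 fold change was 0.08. Of the 8 tested genes of Wnt secretion and extracellular regulation 1 fell, namely Notum, an inhibitor of Wnts described below. The R-spondin genes of that list were under the filter. Of 11 nuclear cofactors 1 rose and 1 fell, and of 8 beta-catenin target genes 2 rose. None of the 16 cytoplasmic or the 17 further polarity genes passed.

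Notum, a secreted enzyme that inactivates Wnts by removing their lipid and is itself a beta-catenin target, fell. It was at 16.8, 11.97 and 14.0 FPKM in controls and 5.93 and 5.19 FPKM in knockouts 0 and 1, with a log2 fold change of -1.21 (SE 0.147, adjusted p = 0.0221), and an antisense gene, Notumos, overlaps it. Ctnnbip1, an inhibitor of the binding between beta-catenin and TCF, also fell, from 15.4, 15.4 and 16.0 FPKM to 11.4 and 11.3 FPKM (log2 fold change -0.43, SE 0.0616, adjusted p = 0.0286). For both genes the knockouts lay below every control, as was the case for 26.3% of all tested rows.

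Tle2, a corepressor of TCF factors, rose from 6.81, 8.44 and 7.87 FPKM to 13.8 and 15.3 FPKM (log2 fold change 0.84, SE 0.105, adjusted p = 0.0236). Jun, a subunit of the AP-1 transcription factor, rose from 10.5, 9.86 and 11.8 FPKM to 27.7 and 20.7 FPKM (log2 fold change 1.09, SE 0.143, adjusted p = 0.0255). Ccnd1, which encodes the cell cycle protein cyclin D1, rose from 72.3, 72.7 and 81.8 FPKM to 136 and 117 FPKM (log2 fold change 0.73, SE 0.104, adjusted p = 0.0278). Many other pathways also control Jun and Ccnd1, and antisense genes overlap Tle2 (Gm15917) and Jun (Junos). Leaving out a single control ended all 5 of these calls, except that Notum was still called without control 1, and rescaling to a common sum ended that of Ctnnbip1 at 0.0515.

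Other targets and polarity genes did not pass. Sp5, a close readout of beta-catenin activity, was at 11.3, 9.80 and 12.7 FPKM in controls and 7.82 and 8.45 FPKM in the knockouts, below every control (log2 fold change -0.42, adjusted p = 0.0904). Wtip was at 10.3, 11.9 and 9.55 FPKM in controls and 14.9 and 14.7 FPKM in the knockouts (log2 fold change 0.46, adjusted p = 0.0611). Fat1, an atypical cadherin, was at 7.13, 6.16 and 7.00 FPKM in controls and 9.67 and 8.77 FPKM in the knockouts (log2 fold change 0.40, adjusted p = 0.0626). Rescaling every library to a common sum took Wtip and Fat1 just past the threshold, at 0.0498 and 0.0459. Cd44, Sox9 and Ankrd6, named after their values were seen, were above every control in both knockouts and far higher in knockout 0. They were at 7.55, 3.72 and 4.62 FPKM in knockout 0 and 1.23, 0.373 and 0.961 FPKM in knockout 1, against at most 0.780, 0.301 and 0.931 FPKM in any control. Cd44 and Ankrd6 did not pass (adjusted p = 0.182 and 0.254), and Sox9 was under the filter. Cell division markers summed to 6.43 to 15.7 FPKM in controls, 39.2 FPKM in knockout 0 and 13.7 FPKM in knockout 1. Their part in these values, and that of the macrophage and injury sums given above, was not tested.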

How the data were processed

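Total RNA from whole kidneys was extracted with TRIzol, and 1 µg entered an Illumina mRNA-seq library, per the labels' protocols. The deposited table gives each library's FPKM, computed by the authors. The submitters' processing notes name bcl2fastq and mm10; the aligner, FPKM program, annotation and strandedness were not given in the sources used here. Positions are from GENCODE M21 on the same build, and promoters from RefSeq.

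FPKM are not counts, so no count test was run. Genotypes were compared with limma 3.58.1 in R 4.3.3 (two-sided, lmFit, eBayes with trend) on log2(FPKM + 1). Rows had a mean of at least 1 FPKM, with Benjamini-Hochberg adjustment over all 12640 rows and a threshold of 0.05. The fit was also run on simulated data in which both groups had the spread of the controls. That run cannot show how the fit handles knockouts that are less alike than controls. The libraries correlated at 0.960 between the knockouts and at 0.988 to 0.990 among controls. Python 3.11.15, numpy 2.4.6, pandas 2.3.3 and matplotlib 3.10.9 handled tables and plots. Members and lists were chosen with earlier results of these data known. Named genes were the called members, the 3 smallest p-values and 2 highest levels per role, members under the filter reaching 0.5 FPKM in a library, the called wider pathway genes and the smallest p of each of their lists; other genes were named after their values were seen. Alternatives were a pseudocount of 0.1, no filter, rows listed at 0 left out, median-of-ratios scaling, a common sum (TPM), no variance trend, a replicate block, each library left out and, chosen after seeing the data, no filter with a pseudocount of 0.1. Protein sequences were not analysed here.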

Additional observations from a re-analysis of the deposited data

How the results depend on the processing

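Over the whole table limma called 802 rows, 482 with no filter, 531 with no filter and a pseudocount of 0.1, and 36 to 2599 when 1 library was left out (37, 155 and 36 without control 0, 1 or 2, 1054 without knockout 0 and 2599 without knockout 1). Rescaling to a common sum (TPM) changed the split from 345 higher and 457 lower to 454 and 266. Members called went from 2 to 1 (Dkk3) with median-of-ratios scaling and with TPM, to 0 with no filter (16 at an unadjusted p under 0.05), and to 0 to 8 with 1 library left out; it was 0 without each control in turn, with 7, 6 and 5 at an unadjusted p under 0.05. The wider pathway genes called went from 5 to between 0 and 11 (0, 1 and 0 without control 0, 1 or 2, with 13, 14 and 10 at an unadjusted p under 0.05; 6 without knockout 0 and 11 without knockout 1). Same-numbered libraries correlated at 0.0863 and 0.00236 in their deviations. With 2 knockouts their deviations mirror each other, so these values cannot decide whether the numbers are a pairing. The main fit did not take them as one. A replicate block left 28 rows, 0 members and 0 wider pathway genes called (4 and 10 at an unadjusted p under 0.05) and turned Lrp5 to 0.0093. No knockout shares the number of control 2, so that control adds nothing to the genotype difference in the block fit. With TPM the log2 fold changes of Fzd1, Lgr4, Lrp5, Axin1 and Vangl1 turned to 0.031, 0.0084, 0.068, 0.041 and 0.031. With 1 library left out the sign turned for Wnt5a (-0.20 to 0.41), Fzd1 (-0.18 to 0.088), Fzd4 (-0.11 to 0.61), Lgr4 (-0.20 to 0.045), Lrp5 (-0.099 to 0.081), Sfrp1 (-0.32 to 0.15), Axin1 (-0.14 to 0.068), Rnf43 (-0.39 to 0.10), Znrf3 (-0.17 to 0.29), Ror1 (-0.071 to 0.25) and Vangl1 (-0.20 to 0.12). None of these 11, all chosen by the naming rule, was called in the main fit, and the cause was not tested. The signs were followed for the 37 fitted genes chosen by the naming rule, and 26 of them kept theirs in all 13 other settings. Outside that set the tested members Wnt9b and Fzd7 also turned. Their log2 fold changes were -0.20 and -0.033 in the main fit and 0.072 and 0.17 without knockout 0. Levels under about 0.05 FPKM rest on few counts.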
